A study of Rattus norvegicus with 4 samples.

Results

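The AP-1 and ATF genes encode transcription factors of the basic leucine zipper (bZIP) class, here the Fos genes Fos, Fosb, Fosl1 and Fosl2, the Jun genes Jun, Junb and Jund, and the related genes Atf3, Batf and Maff. They were chosen by name, and a gene was taken as measured where a row of the deposited expression table carried its symbol alone. By this rule 9 of the 10 genes were measured, among 13215 named genes in the table, and each had 1 row. Fosl2 had no such row and was not analysed here. The cells were surface colonocytes, the absorptive cells that line the lumen of the distal colon, from 4 Wistar rats aged 12 weeks. All 4 rats had lost both adrenal glands 4 days earlier and drank 0.9% NaCl. The study compared 2 rats treated with aldosterone for 2 h with 2 rats treated with its vehicle, to find genes that the hormone regulates in these cells. Aldosterone came as 1 injection under the skin (50 µg/100 g body weight) together with a minipump made to deliver 10 µg per kg and hour, and vehicle rats had an injection and a minipump with the solvent PEG300 alone. The colons of both groups were then turned inside out and shaken for 40 min to free the surface cells, with 100 nM aldosterone or vehicle in the solution. No cells from undissociated tissue and no rats with intact adrenal glands were analysed here.

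Proteins of the Fos group bind DNA mainly as dimers with a Jun protein, whereas Jun proteins can also pair with each other. The dimers, together called AP-1, recognise the element TGACTCA, and dimers with ATF or CREB partners prefer the longer cyclic AMP response element TGACGTCA. Several of the genes, Fos, Fosb, Junb and Atf3 among them, are immediate early genes: growth factors, stress and the handling of tissue induce them within minutes, with no need for new protein, and their messenger RNAs decay fast. In the gut epithelium AP-1 is known for its part in wound repair, growth and inflammation, and the glucocorticoid receptor, a close relative of the mineralocorticoid receptor, is known to restrain AP-1 activity.

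Start regions of the genes in the RefSeq annotation of the GRCr8 rat assembly were read for such elements. An entry was found for 7 of the 10 genes, all but Fos, Jun and Atf3. The windows of Junb and Jund are shown because both genes lay lower in both aldosterone rats than in both vehicle rats, and that of Maff because its window, like that of Jund, holds a full TGACGTCA. Fosb also lay lower, but the RefSeq gene model of Fosb begins further upstream than its window's start site, so that window is not shown. Each run is the 250 bases before the start site, read 5′ to 3′ on the strand of the gene, with TGACGTCA, TATAAA and CCAAT in capitals.
Junb, chr19:40080876-40081125, plus strand: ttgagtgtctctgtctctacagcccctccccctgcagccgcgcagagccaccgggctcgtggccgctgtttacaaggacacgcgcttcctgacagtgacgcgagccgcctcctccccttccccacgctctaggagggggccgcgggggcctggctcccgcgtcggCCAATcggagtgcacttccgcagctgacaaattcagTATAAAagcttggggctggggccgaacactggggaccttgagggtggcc
Jund, chr16:18769772-18770021, minus strand: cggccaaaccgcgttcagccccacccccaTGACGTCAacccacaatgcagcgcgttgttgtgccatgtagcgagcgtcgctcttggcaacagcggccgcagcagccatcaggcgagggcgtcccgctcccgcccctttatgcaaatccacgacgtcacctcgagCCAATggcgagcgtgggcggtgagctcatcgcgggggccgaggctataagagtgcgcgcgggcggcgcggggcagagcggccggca
Maff, chr7:112792537-112792786, plus strand: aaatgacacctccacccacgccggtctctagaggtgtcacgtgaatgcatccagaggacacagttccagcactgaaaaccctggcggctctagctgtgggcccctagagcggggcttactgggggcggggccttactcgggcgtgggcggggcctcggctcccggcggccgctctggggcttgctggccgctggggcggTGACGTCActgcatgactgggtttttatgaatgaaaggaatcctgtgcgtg

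The element TGACGTCA lay 221 to 214 bases before the start of Jund and 51 to 44 bases before that of Maff. Searched on both strands, it occurred in 1.59% of all 33469 windows of this length. Junb held TATAAA 49 to 44 bases before its start, a motif found in 12.9% of windows. It also held CCAAT 85 to 81 bases before its start, and Jund held the same motif at 86 to 82 bases. CCAAT occurred in 34.0% of windows. The shorter core TGACG, which overlaps TGACGTCA, occurred in 18.2% of windows. It was found in Junb at 155 to 151 bases and, outside its full element, in Jund at 98 to 94. Fosl1 held it at 148 to 144 and 84 to 80 bases, and Batf at 55 to 51. The AP-1 element TGACTCA (4.05% of windows), the CArG box of serum response factor (1.50%) and the palindromic steroid receptor element (0.012%) were not found in any of the 7 windows, that of Fosb included. These are matches of letters, and the expression data carry no measure of binding.

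All 9 genes were read from the authors' log2 expression values, 1 per row and array. A row gathers probes that the array treats as 1 unit, and each of the 9 genes was read from a row with its symbol alone. The 6 genes Fos, Fosb, Jun, Junb, Jund and Atf3 had means over the 4 arrays from 8.79 to 11.65. Fosl1, Batf and Maff had means from 2.97 to 3.98, near the floor of the arrays, where 65% of all 19403 rows have a mean below 3. Levels of different genes are not ranked here, since probes differ in brightness. In bulk samples such as these, fewer cells of a type and less RNA per cell cannot be told apart. The labels call the arrays of a group biological replicates, and with 2 against 2 an exact two-sided permutation test cannot go below 0.333.

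**Figure D1:**
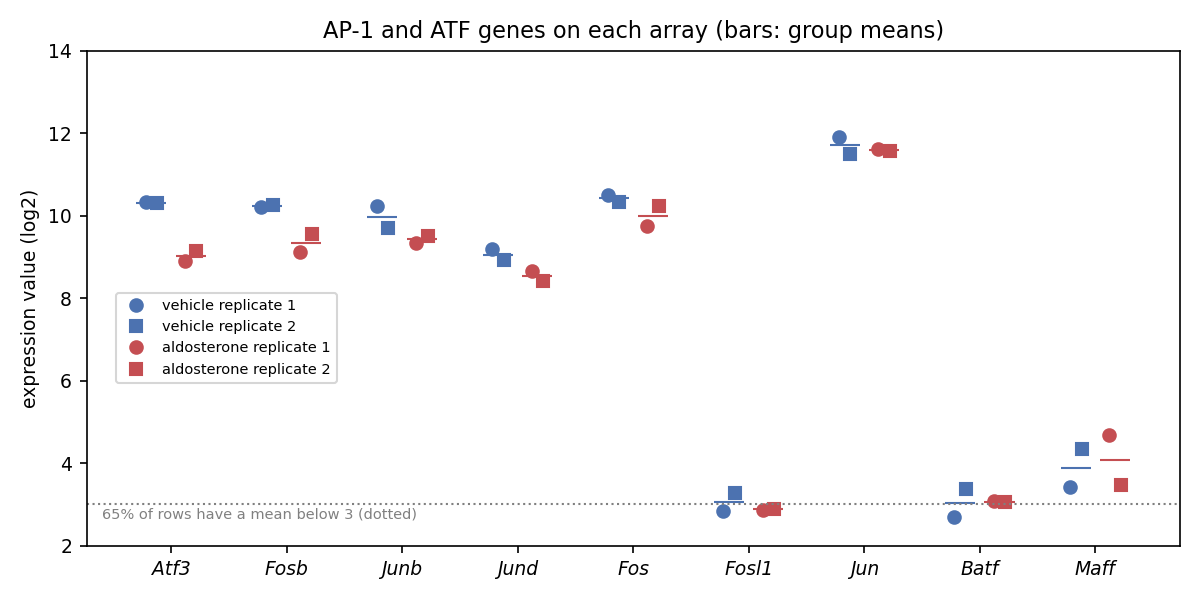
Log2 expression value (vertical axis) of the 9 measured genes on each of the 4 arrays, with vehicle rats in blue, aldosterone rats in red, replicate 1 as circles, replicate 2 as squares and short bars at the group means of 2 rats. In Atf3, Fosb, Junb, Jund and Fos both red points lie below both blue points, and in the other 4 genes the groups overlap.

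Both aldosterone rats lay below both vehicle rats in 5 of the 9 genes, Atf3, Fosb, Junb, Jund and Fos, and above them in 0. Over all rows 11.1% lay lower in this way and 16.7% higher, and after centring every array on its own median these shares were 17.2% and 9.61%. Among the 662 rows with a mean of 8.5 or more, a level chosen after the values were seen so as to hold the 6 brighter genes, the shares were 17.1% lower and 18.4% higher. The difference, aldosterone minus vehicle, was negative in 7 of the 9 genes, against 41.7% of all rows. Among brighter rows it was negative more often, in 2670 of the 4815 rows with a mean of 4 or more and in 322 of the 662. The median log2 difference of the 9 genes was -0.43, beside a median of 0.024 over all rows. In limma, fitted over all rows with a constant prior variance, 0 of the 9 genes and 0% of all rows passed an adjusted p of 0.05. Counted by an unadjusted p under 0.05, 3 of the 9 lay lower (Atf3, Fosb and Jund) and 0 higher, against 2.34% and 2.19% of all rows. By the same count 304 of the 4815 rows lay lower and 219 higher, and 29 of the 662 lower and 36 higher. With a prior variance that follows the level of a row (intensity trend), 0.108% of rows passed and none of the 9 genes did.

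Atf3, which encodes a stress-induced repressor and activator of the CREB family, showed the biggest difference of the 9 genes. Its row, 7115455, read 10.32 and 10.31 with vehicle and 8.89 and 9.15 with aldosterone. The group means were 10.32 ± 0.0057 and 9.02 ± 0.18 (SD, n = 2), a 2.46-fold lower level with aldosterone. The gap between the closest rats of the 2 groups was 1.17 on the log2 scale, while the vehicle rats differed from each other by 0.0080 and the aldosterone rats by 0.25. The 95% interval of the log2 difference of -1.30 ran from -1.66 to -0.94. By unadjusted p the row stood 21st among all rows, and its log2 difference was the most negative among the 662 rows with a mean of 8.5 or more. Its adjusted p in limma was 0.437, and 0.0819 with the intensity trend. The adjusted p of Atf3 ran from 0.0819 to 0.988 over the alternatives.

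Of the Fos genes, which supply partners for the Jun proteins, Fosb and Fos lay lower and Fosl1 was close to the floor. Fosb (row 7048605) read 10.20 and 10.25 in vehicle rats and 9.13 and 9.56 in aldosterone rats. Its gap of 0.64 between the groups exceeded the distance between rats of a group, 0.054 for vehicle and 0.43 for aldosterone. The log2 difference of Fosb was -0.88 (95% interval -1.37 to -0.39), a 1.84-fold lower level, with an adjusted p of 0.798 in limma.

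Fos itself, the founding gene of the family (row 7300295), read 10.50 and 10.34 in vehicle rats and 9.75 and 10.24 in aldosterone rats. The groups did not overlap, but they were only 0.10 apart, less than the 0.48 between the 2 aldosterone rats. The log2 difference of -0.43 had an interval from -0.98 to 0.13 and an adjusted p of 1.00 in limma. Without aldosterone replicate 1 it was -0.18.

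Fosl1, which encodes Fra-1 (row 7039170), read 2.85 and 3.27 in vehicle rats and 2.87 and 2.88 in aldosterone rats. The groups overlapped, and the log2 difference of -0.18 (interval -0.67 to 0.30) became 0.030 without vehicle replicate 2.

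Of the Jun genes, which can form dimers by themselves, Junb and Jund lay lower and Jun overlapped. Junb, whose protein often tempers that of Jun (row 7179739), read 10.24 and 9.71 in vehicle rats and 9.35 and 9.51 in aldosterone rats. Its gap between groups was 0.20, smaller than the 0.53 between the vehicle rats. The log2 difference of Junb was -0.54, a 1.46-fold lower level, with an interval from -1.13 to 0.047 and an adjusted p of 1.00 in limma. Without vehicle replicate 1 it was -0.28.

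Jund, which unlike its relatives is made steadily in resting cells (row 7149849), read 9.18 and 8.92 in vehicle rats and 8.65 and 8.41 in aldosterone rats. The gap of 0.27 was close to the distances within groups, 0.26 and 0.24. The log2 difference was -0.52 (interval -0.95 to -0.094), a 1.43-fold lower level, with an adjusted p of 0.980 in limma. With the intensity trend the interval of Jund was wider, from -1.10 to 0.057, and reached across 0.

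Jun, the main partner of Fos (row 7288744), read 11.91 and 11.51 in vehicle rats and 11.62 and 11.56 in aldosterone rats. Both aldosterone values lay between the vehicle values. The log2 difference was -0.12 with an interval from -0.59 to 0.35, and it was 0.083 without vehicle replicate 1. The intervals of Atf3 and Jun do not overlap, while the difference between the genes was not tested.

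Batf and Maff, which encode small bZIP proteins without an activation domain of their own, showed no separation of the groups. Batf, best known from lymphocytes (row 7300312), read 2.69 and 3.37 in vehicle rats and 3.08 and 3.06 in aldosterone rats. Its log2 difference of 0.039 (interval -0.66 to 0.74) turned to -0.018 with arrays centred on their medians, to -0.017 with quantile normalization and to -0.30 without vehicle replicate 1. Maff, one of the small Maf proteins (row 7318753), read 3.43 and 4.33 in vehicle rats and 4.68 and 3.48 in aldosterone rats. The aldosterone rats spanned 1.20 and the vehicle rats 0.91, and the log2 difference of 0.20 had an interval from -1.27 to 1.66. Leaving out vehicle replicate 1 gave -0.26, and leaving out aldosterone replicate 1 gave -0.40.

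The replicate numbers of the labels allow 2 contrasts of same-numbered rats and 2 crossed ones, and every rat enters 2 of the 4. In Atf3 the same-number contrasts were -1.43 and -1.17 and the crossed ones, aldosterone 1 with vehicle 2 and aldosterone 2 with vehicle 1, were -1.42 and -1.18. These 4 values of Atf3 lie within 0.3 of each other. In Fosb they were -1.07 and -0.69 for the same numbers and -1.12 and -0.64 crossed. Aldosterone replicate 1 had the lower Fosb value of the 2 aldosterone rats, so its contrasts with either vehicle rat must be the larger ones. In Fos the same-number contrasts were -0.75 and -0.10, and the crossed ones -0.59 and -0.27. Junb had -0.89 and -0.20 with the same numbers and -0.36 and -0.72 crossed. In Junb the small contrasts were the ones with vehicle replicate 2, the lower of the vehicle rats. Jund had nearly equal same-number contrasts, -0.53 and -0.51, and crossed ones of -0.27 and -0.77. Jun had one positive contrast of each kind, with -0.29 and 0.051 for the same numbers and 0.12 and -0.35 crossed. The contrasts of Fosl1 were 0.022 and -0.39 with the same numbers and -0.40 and 0.038 crossed, and those of Batf 0.39 and -0.31, then -0.29 and 0.37. Maff had the widest spread, 1.25 and -0.86 with the same numbers, against 0.34 and 0.049 crossed. Over the 6 brighter genes the median contrast was -0.82 and -0.35 for the same numbers and -0.47 and -0.68 crossed, and over the 662 rows of that level the same medians were -0.058, 0.060, 0.058 and -0.044.

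**Figure D2:**
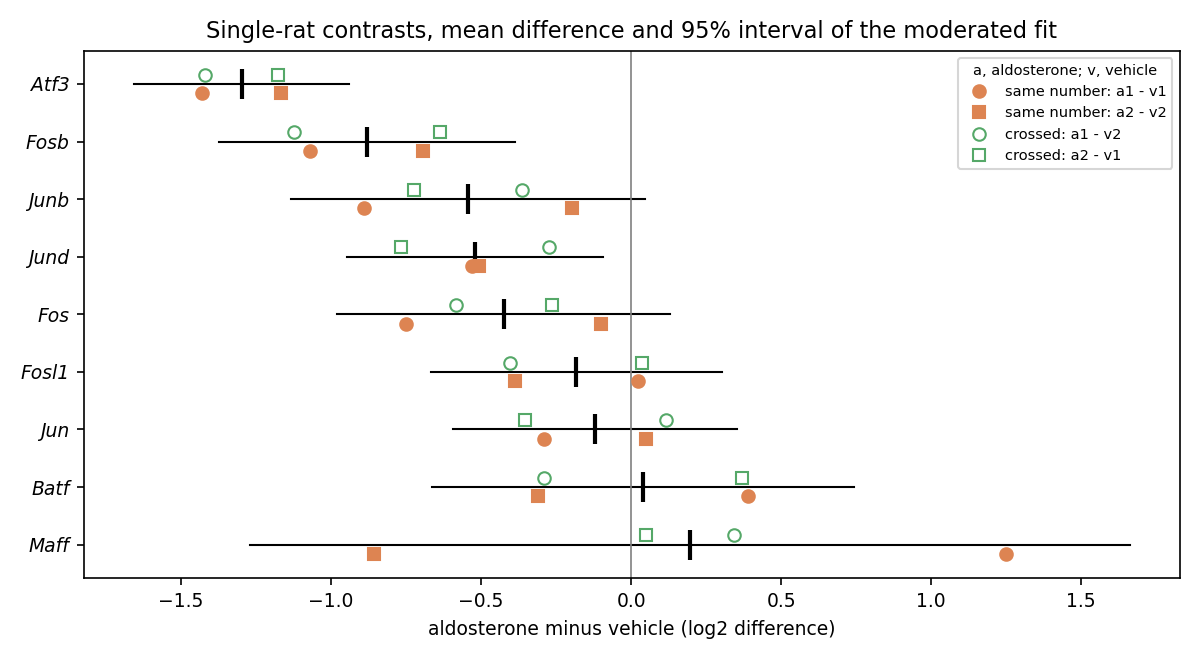
Aldosterone minus vehicle on the log2 scale (horizontal axis) for the 9 genes, with same-number contrasts filled, crossed contrasts open, the difference of the group means as a short black bar and its 95% interval in limma as a line. All 4 contrasts are negative in Atf3, Fosb, Junb, Jund and Fos, and the intervals of Atf3, Fosb and Jund (constant prior) lie below 0.

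At the level of the brighter genes, the rows as a whole lay close to 0. The median log2 difference of the 662 rows with a mean of 8.5 or more was 0.0067, and it was -0.041 over the 4815 rows with a mean of 4 or more. After a cyclic loess normalization, which removes differences between arrays that follow level, the log2 difference of Atf3 was -1.29 and that of Fosb -0.88, and 6 of the 9 genes lay lower without overlap. That normalization left 16.4% of all rows lower in this way.

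**Figure D3:**
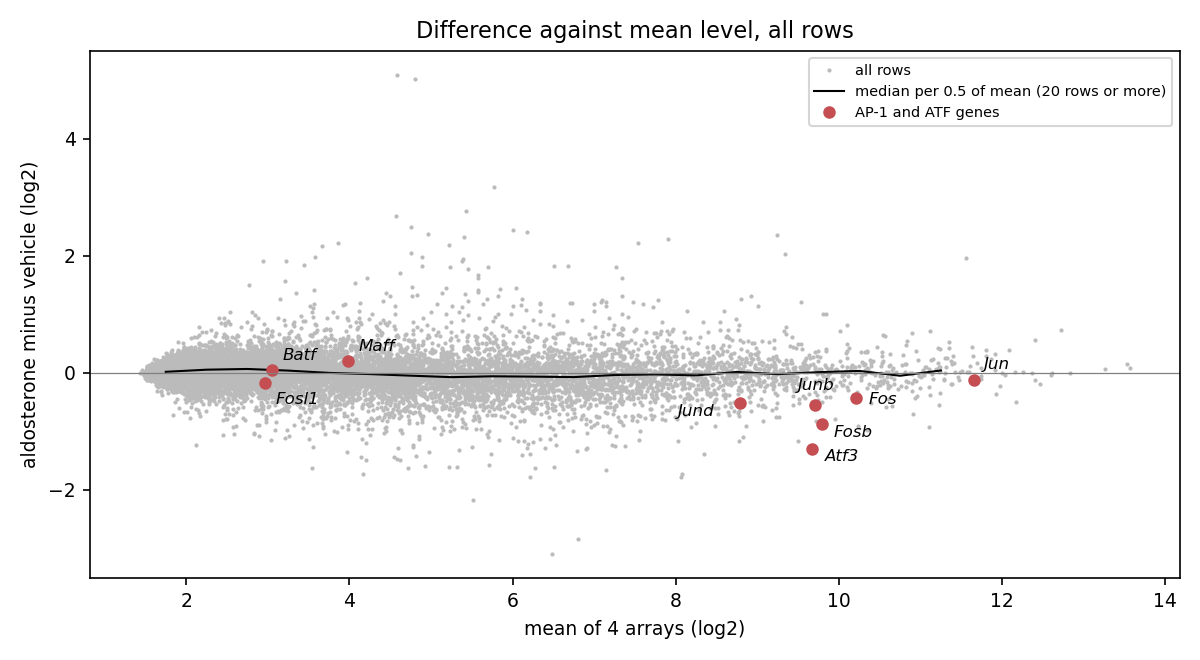
Log2 difference, aldosterone minus vehicle (vertical axis), against the mean of the 4 arrays (horizontal axis) for all 19403 rows in grey, with the 9 genes in red and the median of the rows in steps of mean level as a black line. The line stays near 0, and Atf3 at -1.30 lies below every other row with a mean of 8.5 or more.

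Other immediate early genes were taken from a list of Egr, Nr4a, Ier, Klf and Dusp genes and others. Of 22 measured, 12 lay lower without overlap, 0 higher and 10 overlapped, beside 11.1% of all rows lower and 16.7% higher (17.2% and 9.61% with arrays centred). The median log2 difference was -0.55, with 4 of the 22 positive. In limma 0 of the 22 passed the adjusted p of 0.05, and 8 lay lower at an unadjusted p under 0.05, beside 2.34% of all rows. Nr4a2, an orphan nuclear receptor gene, read 7.04 and 7.59 in vehicle rats and 5.95 and 5.47 in aldosterone rats. Ier3, a survival gene of the early response, read 8.16 and 7.83 against 6.49 and 7.01, and Klf2, a zinc finger gene, read 5.76 and 5.90 against 5.18 and 5.31. Dusp5, which encodes a nuclear phosphatase of ERK, read 9.47 and 9.28 against 8.57 and 7.99. Klf10, a zinc finger gene induced by TGF-beta, read 7.92 and 7.42 against 6.80 and 6.63. In each of these 5 the aldosterone rats lay below both vehicle rats. They were named for the smallest unadjusted p of the list in this same comparison. That choice favours separate groups, so their separation adds nothing to the count of 12 of 22.

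Genes known as targets of AP-1 were mixed. Of 21 measured, 4 lay lower without overlap and 2 higher (19.0% and 9.52%, beside 11.1% and 16.7% of all rows, or 17.2% and 9.61% centred), and the median log2 difference was 0.046. Only 8 of the 21 had a mean of 4 or more. These 8 had a median of -0.34, beside a median of -0.041 over all rows of that level. Of the 8, 4 lay lower without overlap and 1 higher (50% and 12.5%), beside 18.7% and 13.4% of all rows of that level. At the same level 12 of 16 other immediate early genes lay lower and 0 higher. Of the lists described below, other bZIP genes had 4 of 13 lower and 1 higher at that level. Upstream genes had 4 of 14 lower and 1 higher, and cofactors and turnover genes 2 of 14 lower and 3 higher. The matrix metalloproteinase genes Mmp3, Mmp7, Mmp9, Mmp10 and Mmp13 had means at or below 2.07, at the floor. Hbegf, a ligand of the EGF receptor, read 9.37 and 9.36 in vehicle rats and 8.22 and 8.17 in aldosterone rats. Edn1, which encodes endothelin-1, read 10.16 and 10.10 against 9.75 and 8.86. Areg, which encodes amphiregulin, read 8.99 and 8.96 against 8.78 and 7.84. Timp1, an inhibitor of metalloproteinases, read 6.89 and 7.06 against 6.64 and 6.64. Vegfa, a vascular growth factor gene, overlapped at 7.77 and 7.16 against 8.68 and 7.67. In limma 0 of the 21 passed the adjusted p of 0.05. At an unadjusted p under 0.05, 2 lay lower, beside 2.34% of all rows.

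Other bZIP genes, the relatives and partners of AP-1, had 4 of 22 lower without overlap and 2 higher. These shares, 18.2% and 9.09%, stood beside 11.1% and 16.7% of all rows, or 17.2% and 9.61% with arrays centred. The median log2 difference was -0.091. Maf, a large Maf factor, read 6.68 and 7.36 in vehicle rats and 5.93 and 5.85 in aldosterone rats, a 2.20-fold lower level. Mafk, a small Maf protein like Maff, read 9.52 and 9.13 against 8.82 and 7.99. Atf6b, an endoplasmic reticulum stress factor, read 7.13 and 7.06 against 6.72 and 6.09. None of the 22 passed the adjusted p of 0.05 in limma. At an unadjusted p under 0.05, 2 lay lower, beside 2.34% of all rows. In the GRCr8 annotation Jdp2, a repressor of AP-1, and Batf are the next genes after Fos on chromosome 6, with 1 gene that codes for no protein between Fos and Jdp2. Jdp2 had a mean of 2.11 and Batf one of 3.05, so both neighbours of Fos read near the floor.

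Among genes that act upstream, kinases of the MAPK pathways and partners of serum response factor, 4 of 19 lay lower without overlap and 1 higher (21.1% and 5.26%, beside 11.1% and 16.7% of all rows, or 17.2% and 9.61% centred), with a median log2 difference of -0.11. Mapk9, which encodes the Jun kinase JNK2, read 8.46 and 7.99 in vehicle rats and 7.69 and 7.17 in aldosterone rats. Map3k5, which encodes the stress kinase ASK1 upstream of JNK and p38, went the other way at 4.02 and 3.51 against 5.23 and 5.03. Srf, the serum response factor gene, which was chosen after its values were seen, read 5.77 and 5.76 against 5.76 and 5.88. Of cofactors and genes of AP-1 turnover, 2 of 15 lay lower without overlap and 3 higher (13.3% and 20%). Over all rows 11.1% and 16.7% did so, or 17.2% and 9.61% with arrays centred. The median log2 difference of these 15 genes was -0.0026. Zfp36l1, which encodes a protein that speeds the decay of messengers with AU-rich ends, read 8.32 and 7.80 against 7.20 and 6.93. Ets1, a partner of AP-1 on composite sites, read 4.82 and 5.15 against 4.30 and 4.46. The 3 higher genes were Ets2, Smad4 and Itch. Ets2 read 7.83 and 7.80 against 8.03 and 8.33, and Smad4 9.19 and 8.98 against 9.47 and 9.26. Itch read 7.32 and 7.16 against 7.60 and 7.38. None of these 34 genes passed the adjusted p of 0.05 in limma. At an unadjusted p under 0.05, 3 lay lower and 1 higher, beside 2.34% and 2.19% of all rows.

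**Figure D4:**
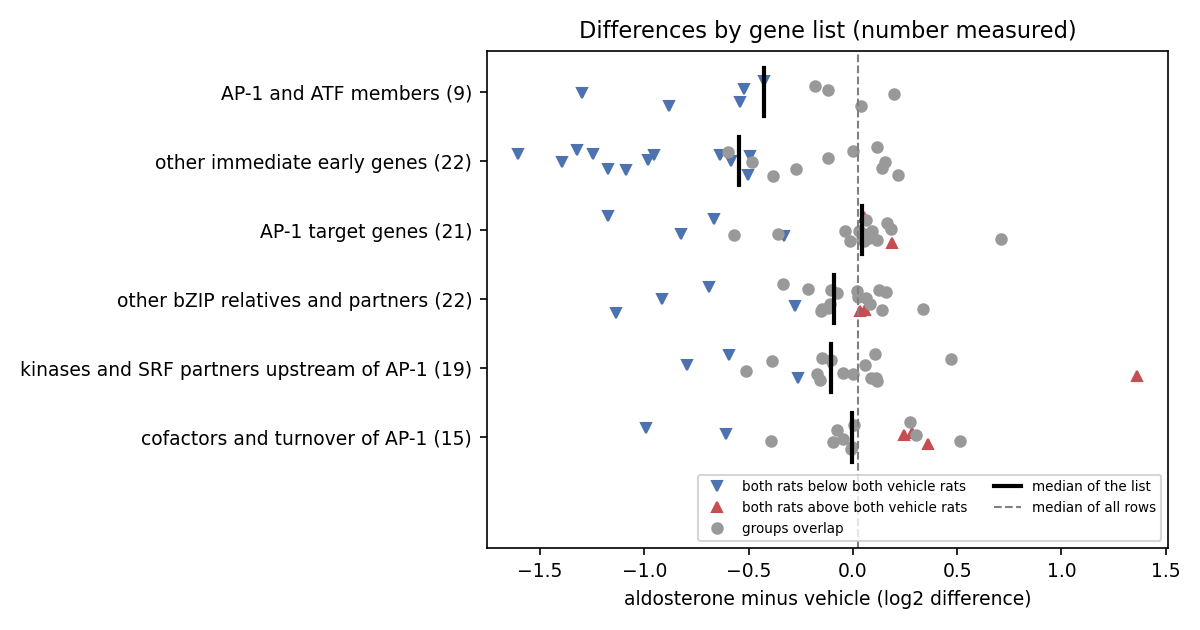
Log2 difference, aldosterone minus vehicle (horizontal axis), of every measured gene in 6 lists, with triangles for genes whose groups do not overlap, grey points for the others, a black bar at the median of each list and a dashed line at the median of all rows, 0.024. The medians of the AP-1 and ATF genes (-0.43) and of the other immediate early genes (-0.55) lie furthest from the dashed line.

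Among 4126 named genes with a mean of 4 or more, the genes most like Atf3 over the 4 arrays, by the Euclidean distance of log2 values after each row's mean was subtracted, were Mst1r (distance 0.15), Pkp1 (0.24) and Hbegf (0.25). Mst1r, the gene of the RON receptor kinase, read 7.90 and 7.85 in vehicle rats and 6.59 and 6.65 in aldosterone rats. Pkp1, a desmosome gene, read 5.66 and 5.40 against 3.92 and 4.31. The genes nearest to Fos were Plscr3 (0.053), Ttc22 (0.067) and Npdc1 (0.074), and those nearest to Jun were Tbrg4 (0.012), Cpne3 (0.026) and Zc3hav1 (0.028). Among the 9 genes themselves Atf3 was nearest to Fosb (0.44) and farthest from Maff (1.93), and Fos was nearest to Junb (0.36). With 4 arrays many genes share a pattern, so these distances are a description.

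The array medians ran from 2.22 to 2.43, and the labels give no batch. Markers of surface colonocytes were well above the floor, with 10 of the 11 measured at a mean of 4 or more. Their summed level on the log2 scale was 14.33 and 14.52 in vehicle rats and 14.60 and 14.65 in aldosterone rats. That level was higher in both aldosterone rats. Of the 11 markers 5 lay higher without overlap and 0 lower, beside 16.7% and 11.1% of all rows (9.61% and 17.2% centred). Their median log2 difference was 0.087, and Krt8, Guca2b and Cdh1 were below 0. Slc26a3, which had the highest values of the 11, read 11.96 and 12.30 in vehicle rats and 12.75 and 12.61 in aldosterone rats. It weighed most in the summed level, whose closest values in the 2 groups were 14.52 and 14.60. The sum without Slc26a3 was not read. The part of the summed level in the lower values of the AP-1 and ATF genes was not tested. Lymphocyte markers, relevant to Batf, had means of at most 3.15 in all 6 measured, with summed levels of 5.09 and 4.79 against 4.83 and 5.20. The 5 macrophage and granulocyte markers other than Cd14 had means below 3, and so did all 6 markers of crypt and dividing cells, all 5 of enteroendocrine cells and 3 of 4 of fibroblasts, muscle and endothelium. Crypt markers summed to 4.53 and 4.74 in vehicle rats and to 4.92 and 4.75 in aldosterone rats. Of these 6, 3 lay higher without overlap and 0 lower, all near the floor. The 4 measured goblet cell markers summed to 11.29 and 10.95 in vehicle rats and to 9.95 and 11.63 in aldosterone rats. Tff3, the brightest of the 4, overlapped. Of the 4, 2 lay higher without overlap and 0 lower. These were Spink4, at the floor, and Zg16, at 5.14 and 4.45 against 6.39 and 8.06.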

How the data were processed

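RNA of 4 rats, 1 Affymetrix exon array each, was analysed from the authors' deposited log2 expression values. The submitters' processing notes name Partek, RMA and Affymetrix Expression Console without saying which did what; the log2 scale was read from the range of the values. The genome build of the arrays is not given in the sources used here. Rows were named through the platform annotation: of 19403 rows, 13327 had 1 symbol, 620 several and 5456 none here. The Entrez IDs of 8 of the 9 genes matched the RefSeq genes of GRCr8, and Fosb matched by symbol. Where a gene had more than 1 row, the one of highest mean stood for it.

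Aldosterone was compared with vehicle in limma 3.58.1 under R 4.3.3 (functions lmFit and eBayes, constant prior, two-sided) over all rows, with Benjamini-Hochberg adjustment and treatment as the only term. The fit was tested on simulated data. The genes and lists were chosen with earlier results of these data known. Named in the text are all measured AP-1 and ATF genes, up to 5 genes of each other list with the smallest unadjusted p, and the 3 genes nearest in pattern to Fos, Jun and Atf3; Srf, Jdp2 and the floor-level genes were named outside that rule. Alternatives were quantile normalization, centring, filters at a mean of 3 and of 4, same-number and crossed replicate blocks, leaving out each array, an intensity trend and a robust prior; cyclic loess and the trend with the block were added after seeing the data. Promoter windows came from RefSeq, GRCr8. Tables and plots used Python 3.11.15, pandas 2.3.3 and matplotlib 3.10.9.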

Additional observations from a re-analysis of the deposited data

How the results depend on the processing

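Atf3, Fosb, Junb, Jund and Fos kept a negative difference under every alternative run. Only quantile normalization, centring and cyclic loess could have turned the sign in these genes. The blocks, intensity trend, robust prior and filters leave the difference of a gene unchanged. Leaving out an array cannot turn it where the groups do not overlap. None of the 9 genes passed an adjusted p of 0.05 under any alternative that kept all arrays. The count of all rows past the threshold, 0 in the main limma fit (879 at an unadjusted p under 0.05), was 1 after dropping rows of a mean under 3, 12 after dropping those under 4, 21 with the intensity trend and 6 with the trend and the replicate block; the cause was not tested, and the filters leave fewer rows to adjust over. The median log2 difference of the 9 genes was -0.48 with arrays centred, -0.47 and -0.53 with the filters, which leave 8 and 6 of the genes, and ran from -0.51 to -0.34 with 1 array left out. Atf3, Fosb, Junb, Jund and Fos lay lower without overlap under every normalization run. The filters leave their values unchanged, and leaving out an array cannot make separate groups overlap, so those runs do not test this. The count of the 9 was 7 with quantile normalization (15.4% of all rows lower) and 6 centred (17.2%) or with cyclic loess (16.4%). With 1 array left out it was 5 to 7, but only 3 arrays were then compared and 22.5% to 35% of all rows lay lower. Signs turned only in genes with a small difference: Batf (-0.017 with quantile normalization, -0.018 centred, -0.012 with cyclic loess, -0.30 to 0.38 with 1 array left out), Maff (-0.40 to 0.80), Jun (-0.32 to 0.083) and Fosl1 (-0.39 to 0.030), the last 3 with 1 array left out. The replicate numbers were not stated to pair the rats. Deviations of same-numbered rats correlated at 0.15 over all rows, so -0.15 when crossed, and the replicate block called 0 rows in either pairing (adjusted p of Atf3 0.629 and 0.695). The number of arrays limits the precision. With 1 array left out the lone rat is assumed to vary like the other group.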
